A study of Homo sapiens with 34 samples.

Results

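The HOX cluster genes encode homeodomain transcription factors that lie side by side in 4 chromosomal clusters, HOXA, HOXB, HOXC and HOXD, and are numbered by paralogue group from one end of a cluster to the other. Their members were taken from the expression table by symbol, as every gene called HOX followed by a cluster letter and a number, which gave 38 of the 20255 genes measured: 10 in HOXA, 10 in HOXB, 9 in HOXC and 9 in HOXD. HOXA4 was not analysed here. In vertebrate embryos the genes of a cluster are switched on in sequence during gastrulation, and their combination tells cells of the mesoderm and neural tube where they lie along the head-to-tail axis. CDX factors and retinoic acid act upstream of them, Polycomb and MLL complexes keep them off or on, and the proteins bind DNA with partners of the PBX and MEIS families. In the blood system HOXA9 and HOXB4 are best known for their roles in stem and progenitor cells, and HOX levels generally drop as blood cells mature.

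The RNA came from H1, an established human embryonic stem cell line, which was turned into primitive blood cells without blood cytokines. Embryoid bodies (EBs) were plated on collagen IV with BMP4 and VEGF, and later only VEGF was given. Blood cells were separated from the rest by the surface protein CD43. In all, 34 samples of 12 populations were sequenced. The undifferentiated H1 cells (1 sample, labelled as untreated) had no replicate and entered no test. Each of the other 11 populations had 3 samples, described by the study as biological replicates: day 0 EBs, labelled with BMP4 and hVEGF; unsorted day 2 cells and day 4 cells; CD43- and CD43+ cells of days 6, 9 and 12; and CD43-CD45- and CD43+/CD45+ cells of day 16, where CD45 is a second blood cell surface protein. Samples from day 2 on were labelled with hVEGF. All samples derive from 1 cell line, a sorted fraction can hold several cell types, and the study used 2 sequencing companies without the labels saying which sample went where, so company and population cannot be told apart.

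Levels are given as the normalised values in the deposited table, tag counts that the authors adjusted for GC content and between samples. In that table every sample holds the same set of values in another order, with a sum of 17856940 and a highest value of 90700, so a value is close to a rank, the sequencing depth is unknown and no counting interval can be given. Differences were tested with limma on log2(value + 1) in 1 fit of 33 samples. A gene was called higher or lower when its Benjamini-Hochberg adjusted p, taken over all 19788 genes that passed a filter on low values, was under 0.05 and its fold change was above 4. All 38 HOX genes passed the filter. Where a gene had values near 0, the fold change on this scale understates the difference. Values per kilobase were divided by the length of the combined exons of a gene in the GENCODE annotation. As a value is close to a rank, they order genes only roughly. In bulk RNA, fewer cells that express a gene and less of its RNA per cell cannot be told apart.

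The sorting labels were matched by their own genes. SPN, which encodes CD43, had values of 8780, 6791 and 5979 in day 6 CD43+ cells against 28, 19 and 49 in CD43- cells. PTPRC, which encodes CD45, stood at 12014, 10084 and 15868 in day 16 CD43+/CD45+ cells against 18, 42 and 22 in CD43-CD45- cells. The sum over 7 pluripotency markers was 125177 in the undifferentiated sample, where LIN28A led. In the day 4 cells this sum had dropped to between 22998 and 26137. The CD43- fractions were rich in mesenchymal genes, of which the CD43+ fractions held less, and these sums are given below beside the HOX values they move with.

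By the coordinates in the table, which fit the human build GRCh38, HOXA occupies 107.1 kb of chromosome 7, HOXB 200.7 kb of chromosome 17 (48528526 to 48729178), HOXC 117.3 kb of chromosome 12 (53938765 to 54056030) and HOXD 98.0 kb of chromosome 2 (176092891 to 176190907). HOXA and HOXB are read from the minus strand, HOXC and HOXD from the plus strand. The loci of 21 of the 38 members overlap another member, for instance HOXB3 with HOXB4, HOXB5 and HOXB6, HOXB7 with HOXB8 and HOXB9, and HOXC6 with HOXC4, HOXC8 and HOXC9. Reads from shared exons could have been divided between them in counting, so the separate values of these neighbours are uncertain.

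Promoter windows in RefSeq (GRCh38.p14) were found for 19 of the 38 members, with 26 start sites in all. The 250 bases before the start are shown for HOXB1, HOXA9, HOXD11 and HOXD13, which gave the largest changes of their clusters in comparisons below. They lie at chr17:48531012-48531261 (HOXB1, minus strand), chr7:27165538-27165787 (HOXA9, minus strand), chr2:176107030-176107279 (HOXD11, plus strand) and chr2:176092471-176092720 (HOXD13, plus strand). Capitals mark every match, on either strand, to the letters TTTATG (bound by CDX factors), TGATNNAT (bound by HOX and PBX proteins together), AGGTCA (bound by retinoic acid and other nuclear receptors) and TATAAA (the TATA box).
HOXB1: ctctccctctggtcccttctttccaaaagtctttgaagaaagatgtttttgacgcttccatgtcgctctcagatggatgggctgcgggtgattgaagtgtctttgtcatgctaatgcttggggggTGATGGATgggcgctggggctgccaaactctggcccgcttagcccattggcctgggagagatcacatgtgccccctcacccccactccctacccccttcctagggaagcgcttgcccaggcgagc
HOXA9: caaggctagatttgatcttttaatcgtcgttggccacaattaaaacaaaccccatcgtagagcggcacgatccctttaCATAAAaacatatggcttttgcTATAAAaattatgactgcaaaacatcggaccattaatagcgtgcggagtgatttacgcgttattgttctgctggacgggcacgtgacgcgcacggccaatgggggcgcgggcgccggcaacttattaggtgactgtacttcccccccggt
HOXD11: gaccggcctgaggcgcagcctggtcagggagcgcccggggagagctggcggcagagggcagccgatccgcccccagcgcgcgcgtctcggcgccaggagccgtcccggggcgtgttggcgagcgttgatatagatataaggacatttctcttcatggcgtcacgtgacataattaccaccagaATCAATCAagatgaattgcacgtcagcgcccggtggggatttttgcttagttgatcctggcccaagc
HOXD13: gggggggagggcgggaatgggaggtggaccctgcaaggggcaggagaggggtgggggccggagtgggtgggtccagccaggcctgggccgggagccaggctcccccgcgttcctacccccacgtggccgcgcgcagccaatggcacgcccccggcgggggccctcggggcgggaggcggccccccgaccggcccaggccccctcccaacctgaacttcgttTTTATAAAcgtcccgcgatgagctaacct
The HOXB1 window holds TGATGGAT, 125 to 118 bases before the start. In HOXA9, CATAAA, the CDX-type letters read from the other strand, lies 172 to 167 bases before the start and TATAAA 150 to 145. HOXD11 has ATCAATCA, a HOX-PBX match on the other strand, 67 to 60 bases before the start, and HOXD13 has overlapping TATA matches on both strands between 29 and 22 bases before it. Among the 26 member windows, 3 held the CDX-type letters, 3 the HOX-PBX letters, 0 the nuclear receptor letters and 5 a TATA box. Of all 35116 promoter windows of this length, 9.64%, 6.47%, 12.1% and 10.7% held them. These matches describe the letters of the windows and say nothing of binding in these cells.

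HOX genes were close to 0 before differentiation. The undifferentiated sample had a summed value of 17 over all 38 genes, and no member exceeded 3 in it. In day 0 EBs the sum was 37.7 ± 16.5 (SD, n = 3), and no gene reached 10 in all 3 EB samples. The plot of HOX genes by sample shows this as the dark left edge.

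**Figure D1:**
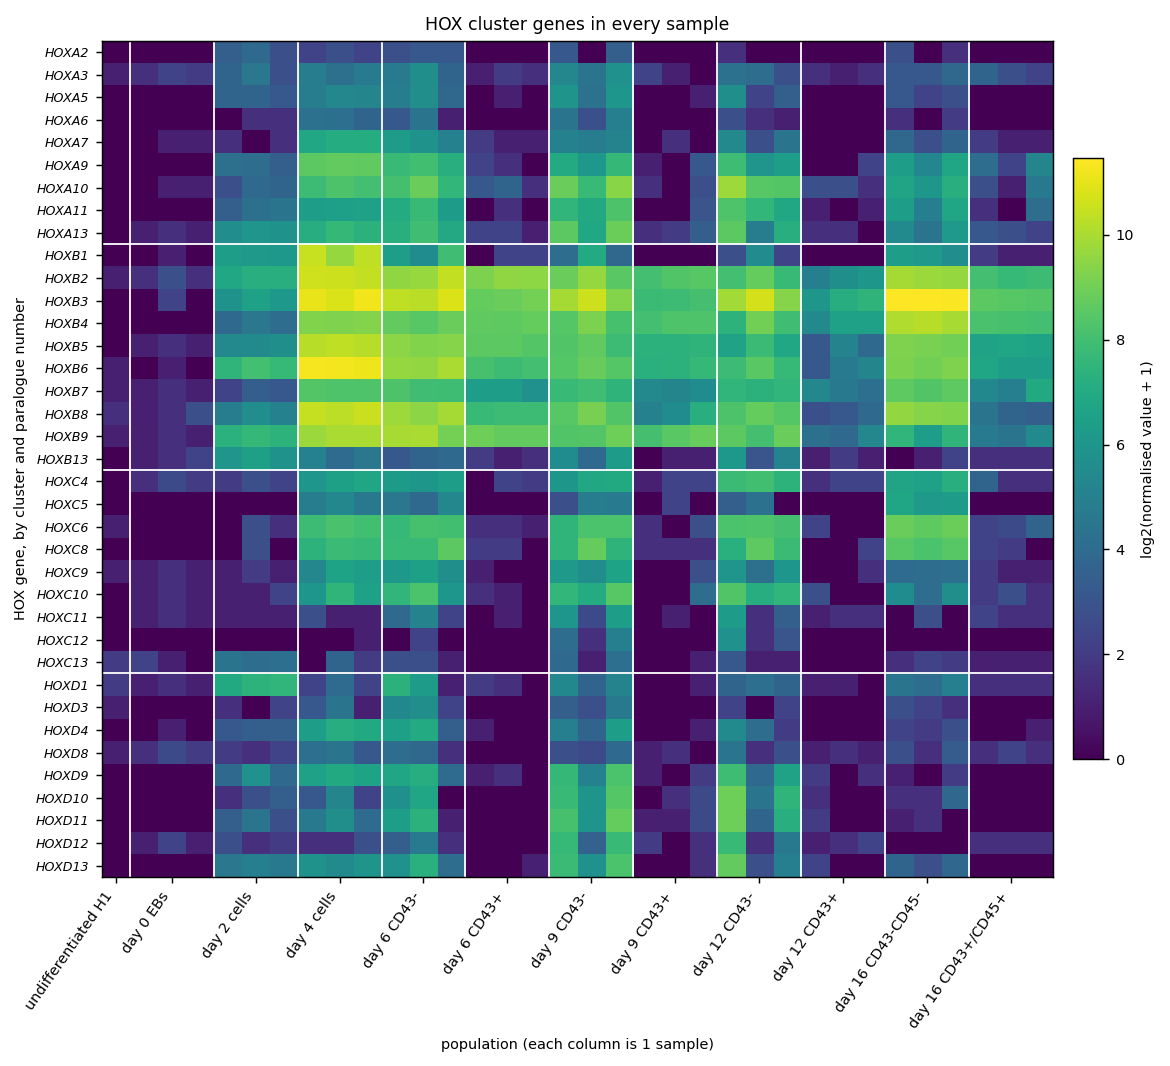
Normalised values of HOX cluster genes (rows, by cluster and paralogue number) in the 34 samples (columns, by population), coloured as log2(value + 1). The rows are near 0 in undifferentiated cells and EBs, most are filled by day 4, and in the CD43+ columns the filled rows are mainly HOXB2 to HOXB9.

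By day 2, 22 of the 38 genes had risen, against 4.40% of all genes, and 0 had fallen, against 3.48% (limma; 26 had an unadjusted p under 0.05, all higher). The median log2 fold change over the members was 3.23, beside -0.01 over all genes. The rise took in 9 of 10 HOXB genes, 7 of 10 HOXA genes and 5 of 9 HOXD genes, but 1 of 9 HOXC genes. It reached both ends of the clusters: HOXB1 and HOXD1 at one end, and the 4 genes of paralogue group 13, which shape the limb ends and the tail region, at the other, were called, whereas 0 of 2 in group 7 and 0 of 2 in group 12 were.

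HOXB6, a trunk gene, went from 0, 1 and 0 to 178, 258 and 202, a log2 change of 7.39 (SE 0.33, adjusted p 8.22e-16). HOXD1 went from 1, 2 and 1 to 124, 167 and 187, a change of 6.11 (SE 0.91, adjusted p 6.31e-06). In both genes the lowest day 2 sample was far above every EB sample. Per kilobase of exon their levels on day 2 were 81.7 ± 15.8 for HOXB6 and 80.7 ± 16.3 for HOXD1 (SD, n = 3), which did not differ beyond their spread.

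HOXC13, known from hair follicles, was the HOXC member that passed, from 4, 1 and 0 in EBs to 20, 16 and 17 on day 2 (log2 change 3.11, SE 0.78, adjusted p 0.00241). The groups do not overlap, but the values are low and the call was lost with a pseudocount of 10 (1.26). HOXC4 to HOXC12 stayed between 0 and 6 in the day 2 samples. The other group 13 genes were higher than HOXC13 in every day 2 sample: HOXA13 had values of 48, 62 and 56, HOXB13 62, 90 and 58, and HOXD13 22, 30 and 24. With a pseudocount of 10, which damps low values, 10 members were called on day 2.

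From day 2 to day 4, 21 members rose, against 4.97% of all genes, and 3 fell, against 4.53%. The median over the members was 2.73 on the log2 scale, beside -0.03 over all genes. HOXC, nearly silent on day 2, now gave 6 of its 9 genes, together with 9 of 10 HOXB genes and 5 of 10 HOXA genes, but only 1 of 9 HOXD genes. Among the genes that fell were HOXC13 and HOXD1, which had risen by day 2 and lie at the ends of their clusters. Of the 17 members that reached 10 in all 3 samples by day 2, 8 were HOXB genes numbered 1 to 9, and 14 more members reached that level on day 4.

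HOXC8, a gene of the thoracic region, went from 0, 6 and 0 on day 2 to 168, 221 and 203 on day 4, a log2 change of 6.69 (SE 0.69, adjusted p 1.38e-08). HOXA7 moved from 2, 0 and 2 to 112, 134 and 134 (5.93, SE 0.55, adjusted p 2.28e-09). HOXB7 moved from 4, 10 and 8 to 330, 310 and 317 (5.34, SE 0.36, adjusted p 4.22e-12). None of the day 4 samples of these genes came near a day 2 sample. HOXD1 fell by 4.42 (SE 0.91, adjusted p 0.000359), from 124, 167 and 187 to 4, 15 and 4.

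Day 4 was the high point of the HOXB cluster. Summed over all members the value rose from 1811 ± 190 (SD, n = 3) on day 2 to 14057 ± 297 on day 4, and HOXB genes made up 80.7 to 85.8% of it, against 44.8 to 49.3% on day 2. Per kilobase, HOXB6 led with 927 ± 39.5, followed by HOXB8 at 675 ± 55.4, HOXB2 at 641 ± 46.7 and HOXB5 at 600.2 ± 33.5. Neighbours among the latter 3 did not differ beyond their spread, while HOXB6 lay above them. HOXB1, the hindbrain gene at the end of the cluster, followed at 475 ± 135, with single values of 1423, 795 and 1310. Of the 10 HOXB genes, 6 had their highest population mean in day 4 cells.

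**Figure D2:**
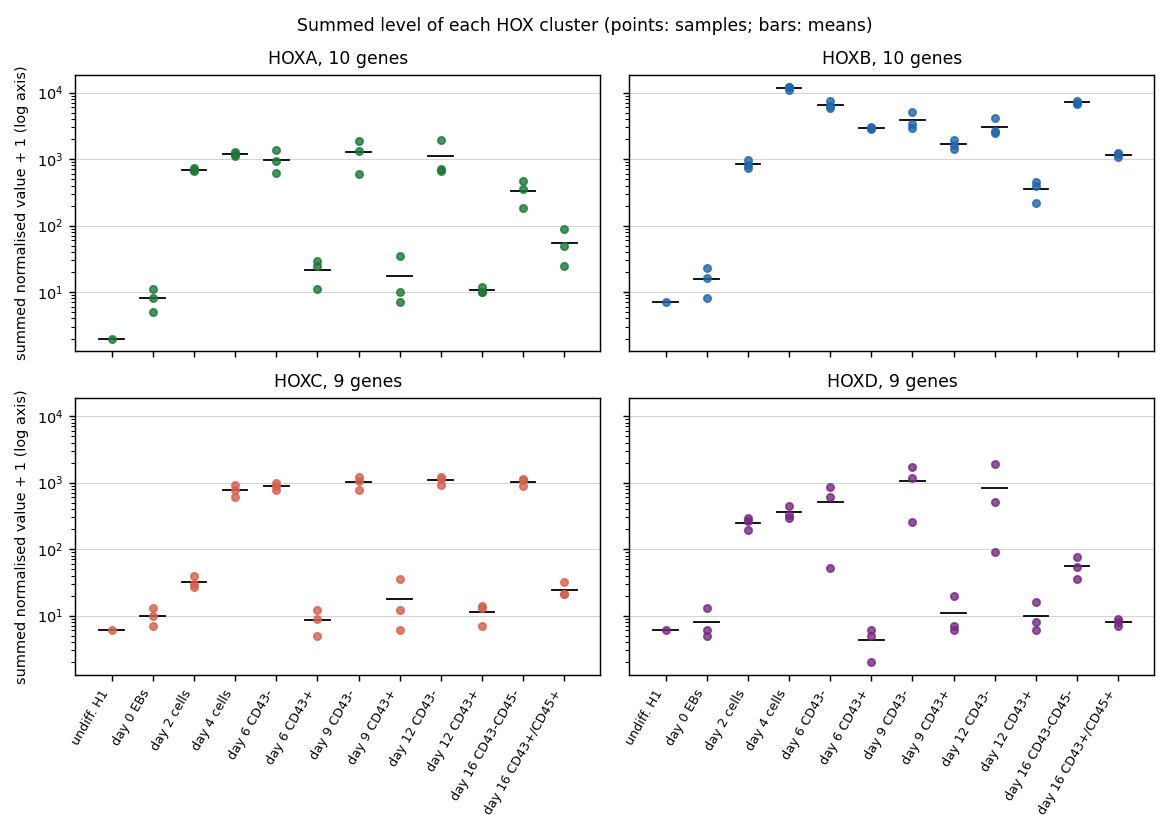
Summed normalised value (+ 1, log axis) of the members of each cluster, 1 panel per cluster, in the 12 populations; points are samples and bars are means. All 4 sums climb from EBs to day 4, and in the CD43+ populations the HOXB sum stays far above the other 3.

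The HOX genes summed to 14057 ± 297 (SD, n = 3) in day 4 cells, 8848 ± 256 in the CD43- fraction of day 6 and 2962 ± 64.4 in the CD43+ fraction. In CD43- cells 1 of 38 members was called lower than on day 4, against 2.77% of all genes, and 0 were called higher, against 4.94% (limma; 9 had an unadjusted p under 0.05, of which 6 were lower). A negative log2 difference was found for 23 of the 38 members, against 54.1% of all genes, and 11 of the 38 were below every day 4 sample, against 31.1%. HOXB genes made up 10 of the 23 and 8 of the 11. Without replicate 3 of the day 6 CD43- cells 5 were called, without replicate 1 of the day 4 cells 2, and without replicate 2 of the day 4 cells 3. In CD43+ cells 29 members were called lower than on day 4, against 7.73% of all genes, with a median of -3.88 beside 0.03 over all genes. Fewer were called there with a pseudocount of 10, as given in the last section. Both comparisons use the same day 4 samples.

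HOXB1 was the single member called in the CD43- cells, going from 1423, 795 and 1310 on day 4 to 84, 46 and 247, a drop by 3.52 on the log2 scale (SE 0.75, adjusted p 0.000456). In CD43+ cells it was at 0, 4 and 4, and it fell by 8.61 (SE 0.75, adjusted p 5.76e-10). HOXA9, the stem and progenitor cell gene, fell from 378, 422 and 409 to 4, 2 and 0 in CD43+ cells (-7.35, SE 0.75, adjusted p 8.34e-09). HOXC6 fell from 231, 286 and 255 to 2, 2 and 1 (-6.62, SE 0.61, adjusted p 1.58e-09), and HOXD4 from 86, 141 and 122 to 1, 0 and 0 (-6.51, SE 0.75, adjusted p 5.84e-08). All of these left the CD43+ samples without overlap with day 4.

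Directly compared on day 6, 29 members were called lower in CD43+ than in CD43- cells, against 7.85% of all genes, and 0 higher, against 4.68% (35 had an unadjusted p under 0.05, all lower). With the replicate number as a block within day 6, where the numbers paired the samples, 25 were called, HOXA6, HOXD1, HOXD10 and HOXD11 being lost. The median log2 difference was -3.94, beside 0.14 over all genes. All 10 HOXA genes, 8 of 9 HOXC genes and all 9 HOXD genes were called, but only 2 of 10 HOXB genes, HOXB1 and HOXB13, which lie at the outer ends of that cluster. Those not called were HOXB2 to HOXB9 and HOXC12, the latter at 0, 4 and 0 in CD43- cells and 0 in all 3 CD43+ samples.

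The largest difference in HOXC was in HOXC8, with values of 207, 208 and 374 in CD43- cells against 3, 3 and 0 in CD43+ cells (-6.65, SE 0.69, adjusted p 1.01e-08). In HOXA it was in HOXA11, a gene of the kidney and forearm, with 130, 207 and 76 against 0, 2 and 0 (-6.47, SE 0.78, adjusted p 1.19e-07). HOXD13 led its cluster with 54, 154 and 16 against 0, 0 and 1 (-5.38, SE 0.94, adjusted p 2.82e-05), and HOXB1 differed by -5.09 (SE 0.75, adjusted p 3.13e-06). The fractions do not overlap for any of them, although HOXD13 and HOXA11 spread widely within the CD43- samples. The number called on day 6 was 17 at a pseudocount of 10.

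HOXB2 to HOXB9, a run of 8 neighbouring genes, stood apart in the CD43+ cells, a grouping made after the values were seen and therefore given with no test. On day 6 their values in CD43+ samples ran from 54 to 742, while the highest value of any of the other 30 members there was 12, in HOXA10, and 49 of the 90 values of those 30 genes were 0. The HOXB cluster held 98.6 to 99.5% of the summed HOX value in CD43+ cells on day 6, against 64.3 to 82.7% in CD43- cells. The median difference between the fractions was -1.26 over the 8 genes, 0 of them called (6 had an unadjusted p under 0.05, all lower, and the same 6 passed the adjusted p but not the fold change), and -4.52 over the other 30, of which 29 were called.

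HOXB4, known for expanding blood stem and progenitor cells, had nearly the same level in both fractions on day 6, with 417, 352 and 457 in CD43- cells and 402, 390 and 432 in CD43+ cells, a log2 difference of 0.00. HOXB2 had values of 742, 824 and 1358 against 580, 742 and 732 (-0.47, adjusted p 0.228 by limma), and the ranges meet. HOXB8, whose product can hold myeloid cells in an immature state, had 876, 702 and 966 against 213, 232 and 228 (-1.90), so the fractions were apart but under the fold threshold. Per kilobase HOXB2 led in CD43+ cells at 293 ± 38.9 (SD, n = 3), above HOXB5 at 180 ± 11.7 and HOXB9 at 168 ± 15.7, which did not differ beyond their spread.

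**Figure D3:**
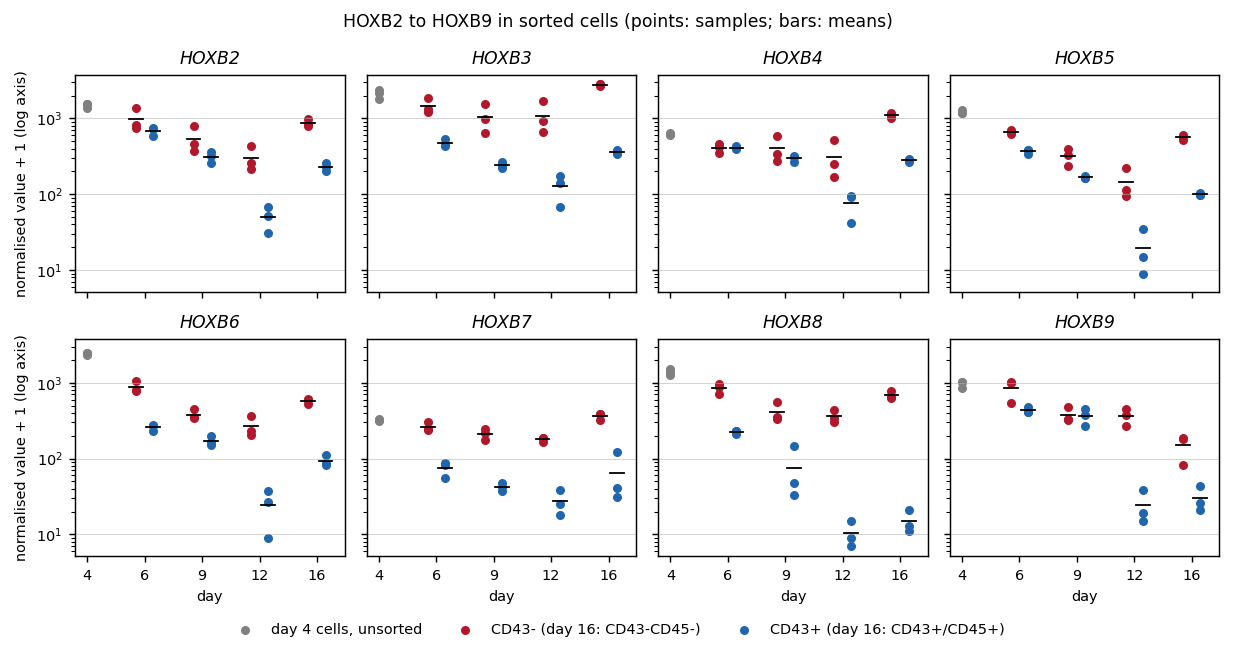
Normalised value (+ 1, log axis) of HOXB2 to HOXB9, 1 panel per gene, by day; points are samples and bars means, with day 4 cells in grey, CD43- in red and CD43+ in blue. For HOXB4 the CD43+ and CD43- samples of day 6 coincide, the CD43+ points of most genes are lowest on day 12, and those of HOXB2, HOXB5 and HOXB6 stand higher again on day 16.

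On day 9 the number of members lower in CD43+ cells was 33, against 12.8% of all genes, and 0 were higher, against 8.65% (36 had an unadjusted p under 0.05, all lower). The median difference was -4.54, beside 0.24 over all genes. HOXA10, which acts in the uterus and in blood progenitors, had values of 459, 218 and 690 in CD43- cells against 2, 0 and 6 in CD43+ cells (-7.22, SE 0.72, adjusted p 1.97e-09). HOXD13 had 220, 54 and 294 against 0, 0 and 2 (-6.73, SE 0.94, adjusted p 5.44e-07). HOXC6 had 178, 298 and 294 against 2, 0 and 6 (-6.51, SE 0.61, adjusted p 6.37e-10). HOXB1 was at 16, 126 and 13 against 0 in all 3 CD43+ samples (-4.96, SE 0.75, adjusted p 2.16e-06). The lowest CD43- sample lay above the highest CD43+ sample in each.

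The 5 members not called on day 9 were HOXB2, HOXB4, HOXB5, HOXB6 and HOXB9. HOXB9, a gene of the thoracic skeleton, had values of 325, 336 and 479 in CD43- cells and 268, 372 and 444 in CD43+ cells, which overlap (-0.08, adjusted p 0.85 by limma). HOXB3, HOXB7 and HOXB8 were called lower. In CD43+ samples HOXB2 to HOXB9 ran from 32 to 444, the highest value of another member was 16 (HOXC10), and 48 of 90 values were 0. HOXB made up 95.7 to 98.7% of the summed value there and 38.0 to 72.6% in CD43- cells. At a pseudocount of 10 the count was 21.

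Between days 6 and 9 no member was called in the CD43+ cells, against 7.53% of all genes called in either direction (limma; 6 had an unadjusted p under 0.05, all lower, and 4 passed the adjusted p but not the fold change). Their sum was 2962 ± 64.4 on day 6 and 1711 ± 308 on day 9. The log2 change was negative for 15 of the 38 members, against 47.7% of all genes, and 8 of the 38 were below every day 6 sample, against 24.7%, HOXB genes making up 10 of the 15 and 7 of the 8. A pseudocount of 0.1, and likewise a fold change above 2, gave 4. Leaving out replicate 3 of the day 9 CD43+ cells gave 2, among them HOXB8, and leaving out replicate 1 of the day 6 CD43+ cells 1. That day 9 sample had the highest HOXB8 value, 144 against 32 and 46, the highest HOXC10 and HOXA13 values, 16 and 10, and also the highest sum over 11 mesenchymal markers, 24907 against 4696 and 9131. The part of the mesenchymal RNA in these values was not tested.

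On day 12 most of the HOXB run dropped in the CD43+ cells. From day 9 to day 12, 6 members fell there, HOXB2, HOXB4, HOXB5, HOXB6, HOXB8 and HOXB9, against 6.54% of all genes called lower. HOXB9 fell from 268, 372 and 444 to 18, 14 and 38, by 3.99 on the log2 scale (SE 0.34, adjusted p 2.07e-10). The other 2 of the run, HOXB3 and HOXB7, were not called, with 66, 142 and 175 for HOXB3 on day 12 after 223, 232 and 268, and 38, 24 and 17 for HOXB7 after 41, 36 and 46. The sum over all members in CD43+ cells was 1711 ± 308 (SD, n = 3) on day 9 and 384 ± 117 on day 12.

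On day 12 HOXB genes counted among those that differed between fractions. In all 31 members were lower in CD43+ cells, against 14.4% of all genes, and 0 higher, against 11.8% (36 had an unadjusted p under 0.05, all lower), with a median of -3.60 beside 0.22. HOXB8 had values of 303, 436 and 344 in CD43- cells and 6, 8 and 14 in CD43+ cells (-5.19, SE 0.41, adjusted p 1.70e-11). HOXC6 had 296, 314 and 267 against 4, 0 and 0 (-7.42, SE 0.61, adjusted p 3.38e-11). HOXA11 had 314, 190 and 112 against 1, 0 and 1 (-6.90, SE 0.78, adjusted p 1.13e-08). In these genes no sample of one fraction came near the other. HOXD10, a gene of the hindlimb level, had 488, 20 and 182 against 2, 0 and 0 (-6.42, SE 1.20, adjusted p 3.46e-05), and its CD43- samples differed among themselves by more than 20-fold. A pseudocount of 10 left 20 members called.

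The median difference of HOXB2 to HOXB9 was -1.02 on day 9 with 3 of 8 called, and -3.04 on day 12 with 7 of 8 called. Over the other 30 members it was -4.84 with 30 called and then -3.84 with 24 called. HOXB4 was the exception of the run on day 12, at 168, 522 and 248 in CD43- cells and 41, 92 and 94 in CD43+ cells (-1.96, SE 0.30, adjusted p 2.35e-06), apart but just under the fold threshold. Of all 38 members it was the one called in 0 of the 4 comparisons of the fractions by limma, although it passed an adjusted p under 0.05 on days 12 and 16. It was called on day 12 without replicate 1 or 3 of the CD43- cells or replicate 2 or 3 of the CD43+ cells, and on day 16 without replicate 3 of the CD43-CD45- cells or replicate 1 of the CD43+/CD45+ cells. The change in the difference between days 9 and 12 was called for 4 members, HOXB5, HOXB6, HOXB8 and HOXB9, all downward, against 4.39% of all genes. For HOXB9 it was -3.93 (SE 0.48, adjusted p 6.45e-07). Single samples decided this count: leaving out replicate 1 of the day 12 CD43- cells gave 10, leaving out replicate 2 of the day 9 CD43- cells 8, with 6 without replicate 1 of the day 9 CD43+ cells and 2 without replicate 1 of the day 12 CD43+ cells. For days 6 and 9 the change in the difference was called for 0 members by limma, against 7.39% of all genes in either direction (2 had an unadjusted p under 0.05), and for 2 without replicate 2 of the day 9 CD43- cells, 1 without replicate 2 of the day 6 CD43- cells.

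In the CD43+/CD45+ cells of day 16, 5 members were called higher than in the CD43+ cells of day 12, HOXA9, HOXB2, HOXB5, HOXB6 and HOXC6, against 3.79% of all genes, and 3 without replicate 1 of the day 12 CD43+ cells. Fewer were called with a pseudocount of 10 or in a fit of these populations alone. More were called with a pseudocount of 0.1 or a fold change above 2, and the last section gives these counts. HOXB5, known from gut and vessel development, went from 8, 34 and 14 to 96, 104 and 98, a change of 2.58 (SE 0.31, adjusted p 3.32e-07), with no overlap. HOXA9 went from 0, 0 and 4 to 16, 4 and 36 (3.10, SE 0.75, adjusted p 0.00164), where the ranges meet at 4, and was not called in a fit of these populations alone. HOXC6 went from 4, 0 and 0 to 4, 5 and 12 (2.10, SE 0.61, adjusted p 0.00747), again meeting at 4, and its call was lost without replicate 2 (1.71) or 3 (1.71) of the day 12 CD43+ cells or replicate 3 of the day 16 CD43+/CD45+ cells (1.68). Endoderm markers summed to 85 to 179 on day 12 and 331 to 761 on day 16, with TTR, APOA1 and AFP called higher, and endothelial markers to 7972 to 11467 and 12420 to 16914, led by PECAM1. Their part in the HOX values was not tested, and day and CD45 gate cannot be told apart here.

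Replicate 3 of the day 16 CD43+/CD45+ cells had the highest values of HOXA9 (36 against 16 and 4), HOXA10 (24 against 6 and 1), HOXA11 (16 against 2 and 0) and HOXB7 (122 against 40 and 30) of that population. Its mesenchymal sum, 9600, was the lowest of the population beside 19554 and 13384. MEIS1, the DNA-binding partner of HOXA9, had values of 362, 1252 and 676 in day 12 CD43+ cells and 4332, 6592 and 1397 on day 16, a rise of 2.34 on the log2 scale (adjusted p 1.99e-05 by limma), and the same replicate was the lowest of the 3 for it.

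The day 16 fractions differed in 23 members, all lower in CD43+/CD45+ cells, against 13.6% of all genes lower, while 0 were higher, against 12.2% (26 had an unadjusted p under 0.05, all lower). The median was -2.32, beside 0.14. HOXC8 had values of 361, 294 and 356 in CD43-CD45- cells against 4, 3 and 0 (-6.95, SE 0.69, adjusted p 1.21e-09). HOXB8 had 772, 654 and 622 against 20, 12 and 10 (-5.56, SE 0.41, adjusted p 4.56e-12). HOXA11 had 86, 30 and 107 against 2, 0 and 16 (-4.16, SE 0.78, adjusted p 3.41e-05). The fractions stayed apart in all 3 genes. HOXD13 had 12, 6 and 13 against 0 in all 3 samples (-3.44, SE 0.94, adjusted p 0.00209), with a call that did not hold at a pseudocount of 10 (-1.01), where 12 members were called in all. Per kilobase HOXB2 led in the CD43+/CD45+ cells at 98.7 ± 12.03 (SD, n = 3), above HOXB4 at 74.1 ± 3.61.

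**Figure D4:**
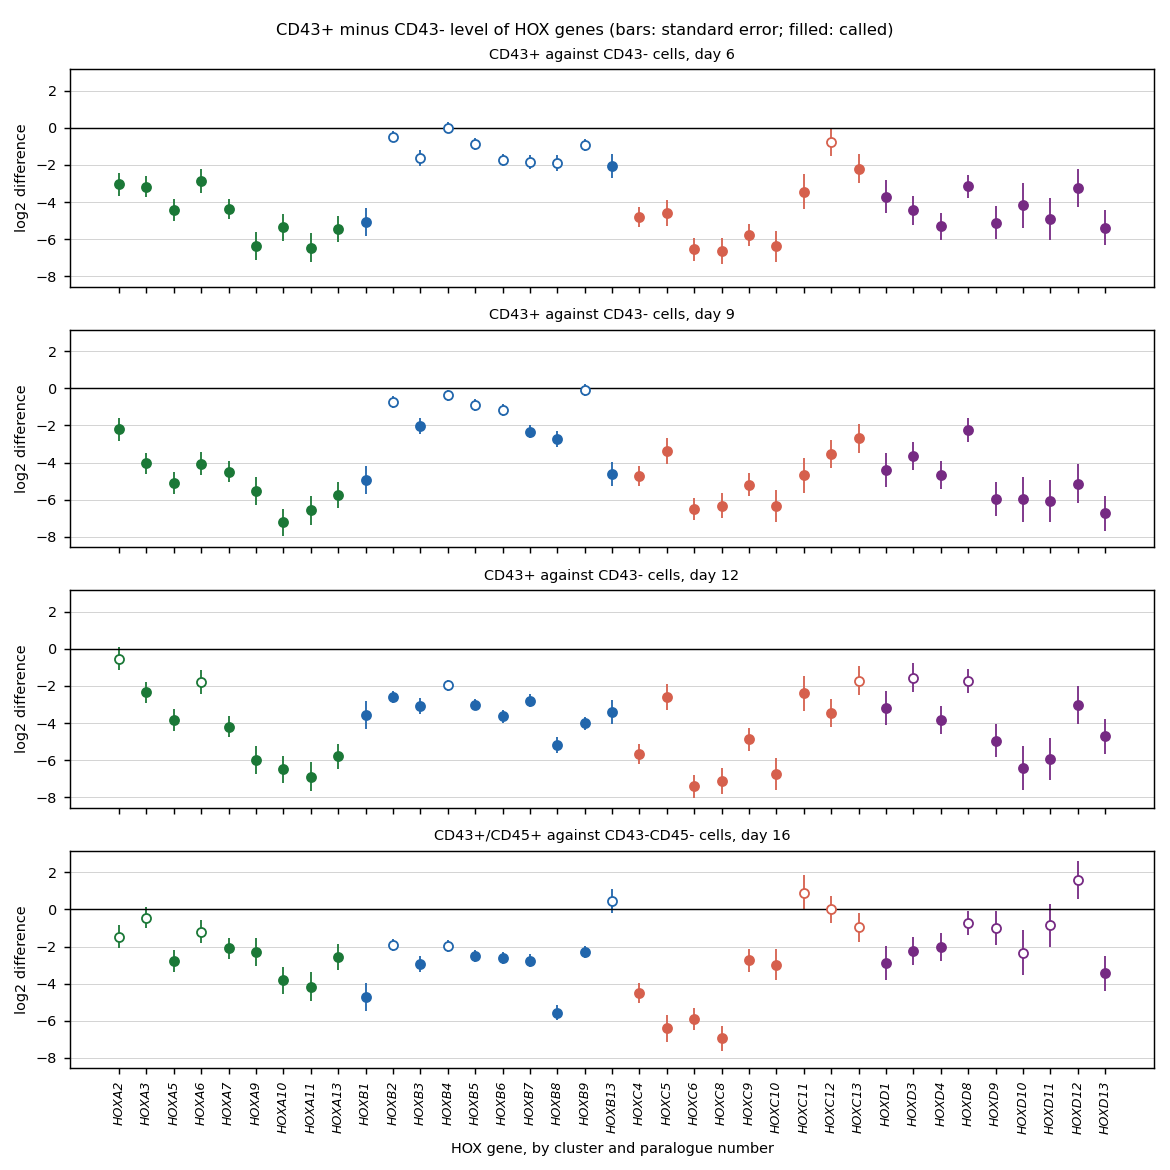
Log2 difference of log2(value + 1) between CD43+ and CD43- cells for HOX cluster genes (by cluster and paralogue number), 1 panel per day (6, 9, 12, 16); bars are standard errors, filled points were called and open points were not. The HOXB2 to HOXB9 points lie nearer 0 than most others on days 6 and 9 and among the others on days 12 and 16.

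Across the 4 days, 16 members were called lower in the CD43+ cells each time: HOXA5, HOXA7, HOXA9, HOXA10, HOXA11, HOXA13, HOXB1, HOXC4, HOXC5, HOXC6, HOXC8, HOXC9, HOXC10, HOXD1, HOXD4 and HOXD13. Of these, HOXD1 was not called on day 6 with the replicate block. Leaving out 1 sample of the compared pair, HOXA7 lost its day 16 call in 4 of 6 cases (replicate 1 or 3 of the CD43-CD45- cells, replicate 2 or 3 of the CD43+/CD45+ cells). HOXD4 lost it in 3 (replicate 3 of the former, replicate 1 or 2 of the latter) and HOXA9 in 1 (replicate 2 of the latter), and HOXC5 lost its day 12 call without replicate 2 of the CD43- cells. A further 11 were called on 3 days, 9 on 2 days, and HOXB2 on 1. The direction was the one in which the mesenchymal markers moved. Their sum was 289221 to 338035 in CD43- cells against 72206 to 178141 in CD43+ cells on day 6, and 411401 to 416525 against 9600 to 19554 on day 16. In the CD43+ samples it was 72206, 96511 and 178141 on day 6, led by COL1A2, and, led by COL3A1, 4696, 9131 and 24907 on day 9, 27100, 22587 and 48756 on day 12 and 19554, 13384 and 9600 at the end, with 0 of the 11 genes at 0 in any of them. In the same order, the day 6 CD43+ samples had HOXA sums of 24, 28 and 10. HOXB summed to 2854, 2934 and 3002 there, HOXC to 8, 11 and 4, and HOXD to 5, 4 and 1. Of the 11 mesenchymal markers (COL1A1, COL3A1, PDGFRA, TWIST1 and others) 8, 11, 11 and 11 were called lower in CD43+ cells on days 6, 9, 12 and 16. The part of this difference in cell types in the HOX values was not tested. Blood markers moved the other way, with 9, 10, 10 and 10 of 10 called higher in CD43+ cells.

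Other marker lists were also compared between the fractions. Of all genes, 7.85, 12.8, 14.4 and 13.6% were called lower in CD43+ cells on days 6, 9, 12 and 16. The shares called higher were 4.68, 8.65, 11.8 and 12.2%. Near the shares called lower were the endothelial count of day 6, the pluripotency count of day 9 and the mesoderm counts of days 12 and 16. Endothelial markers were called lower in CD43+ cells for 1, 6, 7 and 8 of 11 genes on days 6, 9, 12 and 16, with a sum of 38999 to 50030 in the day 6 CD43+ samples, when HOXB2 to HOXB9 were highest there, and 7972 to 11467 on day 12, when they were lowest. Endoderm markers were lower for 5, 6, 7 and 6 of 7 genes, where SOX17, the 1 endothelial gene called on day 6 (-2.77), is in both lists and was lower on each day, cardiac markers for 2, 3, 3 and 3 of 5, and trophoblast markers for 1, 3, 4 and 3 of the 4 tested. Pluripotency markers were lower for 4, 1, 2 and 2 of 7 genes, with DNMT3B higher on day 9, and NANOG differed by -4.99 on day 6. Mesoderm markers were lower for 2, 2, 1 and 1 of 6 genes, HAND1 on each day, with MESP1 higher on days 9 and 16. Their part in the HOX values was not tested.

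In the CD43- cells the HOX pattern lasted but shifted between clusters. Their sum over all members was 8848 ± 256 (SD, n = 3) on day 6, and at the later days 7139 ± 542, 6101 ± 1536 and 8565 ± 416 in turn. Between days 6 and 9 only HOXC12 was called, against 1.10% of all genes called higher, from 0, 4 and 0 to 16, 2 and 30, which overlap (2.77, SE 0.73, adjusted p 0.0214). It lost its call without replicate 1 or 3 of either day, and 4 members were called without replicate 2 of the day 9 CD43- cells, 2 without replicate 2 of the day 6 CD43- cells. With a fold change above 2 the count was 4, and in a fit of these populations alone it was 0.

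Between days 9 and 12, 3 members were called lower in CD43- cells, among them HOXA6 and HOXD3, against 2.80% of all genes. HOXA6 went from 20, 6 and 30 to 6, 2 and 1 (-2.25, SE 0.64, adjusted p 0.00685), and HOXD3 from 10, 6 and 24 to 4, 0 and 4 (-2.09, SE 0.77, adjusted p 0.0348). All of these values are low and those of HOXA6 overlap at 6. No member was called with a pseudocount of 10 or in a fit of these populations alone. HOXA6 lost its call without replicate 3 of day 9 (-1.80) or of day 12 (-1.86), and HOXD3 without replicate 1 (-2.18) or 3 (-1.59) of day 9 or replicate 2 of day 12 (-1.31). Leaving out replicate 1 of the day 12 CD43- cells gave 9 calls, leaving out replicate 2 of the day 9 CD43- cells 8, and leaving out replicate 3 of either day 1.

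Called lower in the CD43-CD45- cells of day 16 than in the CD43- cells of day 12 were 9 members, HOXA10, HOXB13, HOXC10, HOXC11, HOXC12, HOXD9, HOXD10, HOXD11 and HOXD12, against 5.97% of all genes. All are among the 16 members numbered 9 to 13, of which the other 7 were not called, a grouping made after the values were seen. Called higher were 3, HOXB1, HOXB5 and HOXC5, all numbered 5 or below, against 4.46%. HOXB5 lost its call without replicate 1 or 3 of the day 12 CD43- cells, and HOXB1 lost it without replicate 3. HOXC11 went from 78, 2 and 10 to 0, 6 and 0, which overlap. Its call was lost without replicate 1 of day 12 or replicate 1 or 3 of day 16. HOXC10 was not called without replicate 1 of day 12 or replicate 2 of day 16. HOXD11, which acts in the forearm and kidney, went from 484, 12 and 147 to 1, 2 and 0 (-5.75, SE 1.15, adjusted p 0.000206). HOXB13, a gene of the tail end and the prostate, went from 68, 7 and 34 to 0, 1 and 4 (-3.64, SE 0.65, adjusted p 5.34e-05). Neither overlaps, though the day 12 samples of both spread widely.

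HOXC5 moved the other way, from 10, 19 and 0 to 104, 73 and 80 (3.83, SE 0.71, adjusted p 9.28e-05), with no overlap, but was not called in a fit of these populations alone. HOXA10 fell by 2.24 (SE 0.72, adjusted p 0.0132), from 876, 357 and 340 to 103, 66 and 144, and its call was lost without replicate 1 of the day 12 CD43- cells (-1.80) or replicate 2 of the day 16 CD43-CD45- cells (-1.95). Without replicate 1 of the day 12 CD43- cells 8 members were called in all in place of 12. The summed HOXD value was 89 to 1911 on day 12 and 35 to 76 on day 16, and HOXB made up 80.4 to 86.5% of the summed HOX value on day 16 after 34.2 to 68.7% on day 12. Per kilobase HOXB2 at 375 ± 36.6 (SD, n = 3), HOXB3 at 370 ± 12.4 and HOXB8 at 333 ± 38.5 were highest on day 16 and did not differ beyond their spread.

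The day 16 cells differ from those of day 12 in the gate, CD45 being used only on day 16. Blood markers summed to 1004 to 3391 in the day 12 CD43- samples and 2307 to 6762 in the day 16 CD43-CD45- samples, led by ITGA2B on day 16. Endothelial markers went from 37585 to 53459 up to 61796 to 75002, endoderm markers from 6734 to 12859 up to 13829 to 22830, led by AFP, and mesenchymal markers from 401107 to 403011 up to 411401 to 416525, none of the 3 lists overlapping. The mesenchymal sums are limited by genes at the highest value in the table, among them COL1A1 on both days. The part of these marker lists in the HOX values was not tested. Day of culture and gate cannot be told apart in this comparison.

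The change in the difference between the fractions from day 12 to day 16 was called for 9 members, 8 upward, against 2.86% of all genes, and 1 downward, against 2.17%. HOXD11 changed by 5.08 (SE 1.62, adjusted p 0.0305), HOXB13 by 3.89 (SE 0.91, adjusted p 0.00409), HOXA9 by 3.67 (SE 1.06, adjusted p 0.0176) and HOXC5 by -3.83 (SE 1.01, adjusted p 0.00931). For HOXD11, HOXB13 and HOXC5 the values that moved were those of the CD43- cells, since the CD43+ samples had values of 0 to 3 throughout. The call of HOXD11 was lost without replicate 1 or 3 of the day 12 CD43- or day 16 CD43-CD45- cells, replicate 2 or 3 of the day 12 CD43+ cells, or replicate 1 or 2 of the day 16 CD43+/CD45+ cells (3.93 to 5.15). That of HOXA9 was lost without replicate 2 of the day 16 CD43-CD45- cells (3.25) or replicate 3 of the CD43+/CD45+ cells (3.00). Leaving out replicate 1 of the day 12 CD43- cells gave 3 calls, and there were 5 without replicate 2 of the day 12 CD43+ cells, replicate 2 of the day 16 CD43-CD45- cells or replicate 1 of the day 16 CD43+/CD45+ cells. Dropping replicate 1 of the day 16 CD43-CD45- cells left 6, and there were 0 in a fit of the compared populations alone (limma).

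Taken by medians, the CD43- replicates disagreed more in the posterior genes, numbered 9 to 13, than in those numbered 1 to 8. Among the 16 members numbered 9 to 13, 14 had their lowest value in replicate 3 on day 6, 15 in replicate 2 on day 9 and 13 in replicate 2 on day 12. In turn 14 had their highest value in replicate 2 on day 6, all 16 in replicate 3 on day 9 and 14 in replicate 1 on day 12. The order was less uniform on day 16, with 8 lowest in replicate 2 and 10 highest in replicate 3. The median ratio of the highest to the lowest sample, each as value + 1, was 4.004, 5.32 and 11.1 on days 6, 9 and 12, and 2.81 on day 16. For the 22 members numbered 1 to 8 it was 1.82, 2.42, 2.93 and 1.58. In day 4 cells the ratios were 2.03 and 1.37. The number alone did not divide the genes: on day 6 the ratio was 81.5 for HOXD1 and 11.6 for HOXD4. It was 1.66 for HOXA9 and 1.87 for HOXB9. On day 9 HOXA3, HOXA5, HOXA6, HOXD3, HOXD4 and HOXD8 were also lowest in replicate 2 and highest in replicate 3. The replicate numbers of different days name different samples, and nothing in the labels ties them together.

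HOXD10 illustrates this spread. Its CD43- values were 53, 110 and 0 on day 6, then 213, 60 and 350 on day 9. They were 488, 20 and 182 for day 12, and 2, 2 and 13 in the last samples. HOXB1 ran in the opposite sense: its highest CD43- value came from the sample with the lowest HOXD13 value on day 6 (247 beside 16), day 9 (126 beside 54) and day 12 (45 beside 6). HOXB1 was not alone in this. HOXB2, HOXB3, HOXB4, HOXB6, HOXB8, HOXC5 and HOXC8 were highest in the same samples on these days.

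**Figure D5:**
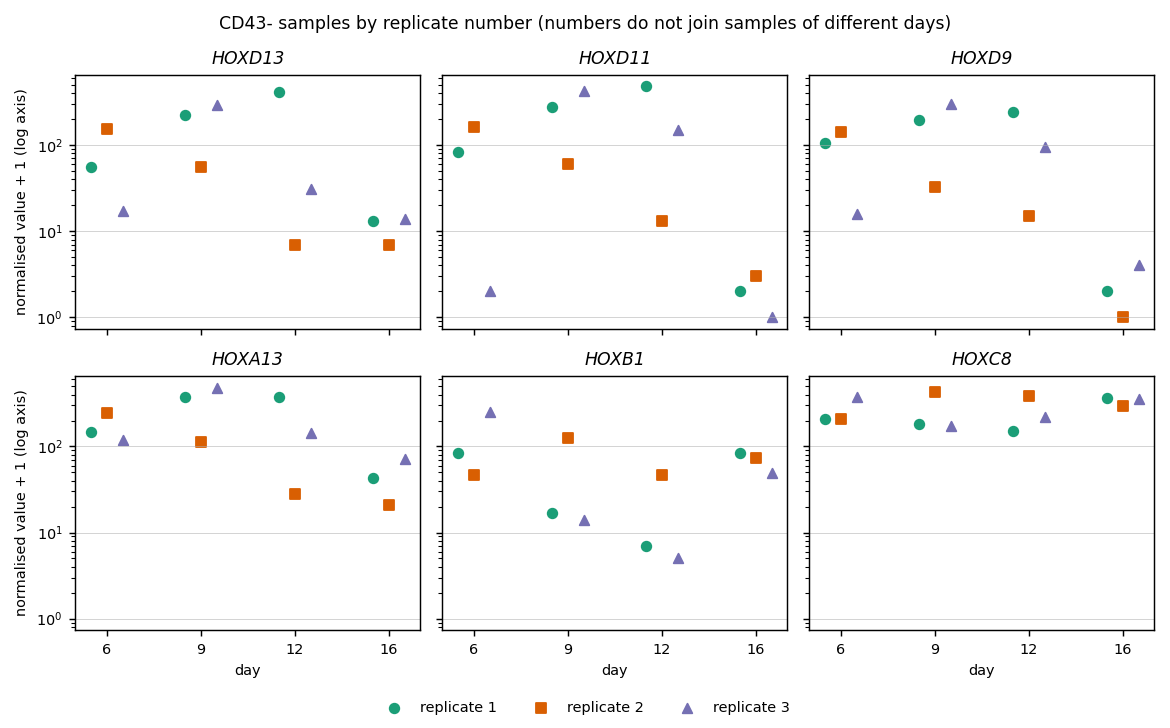
Normalised values of HOXD13, HOXD11, HOXD9, HOXA13, HOXB1 and HOXC8 in the CD43- samples by replicate (1, 2, 3) on days 6, 9, 12 and 16, 1 panel per gene. HOXD and HOXA13 values drop together in replicate 3 of day 6 and replicate 2 of days 9 and 12, where HOXB1 and HOXC8 are highest.

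Marker lists varied between the same CD43- samples too. Endothelial markers summed to 124087, 91249 and 39423 on day 6, to 85435, 51322 and 54411 on day 9 and to 37760, 53459 and 37585 on day 12. The sums over the 11 mesenchymal markers were 289221, 296826 and 338035, then 331738, 352954 and 379448, then 401397, 401107 and 403011, each with COL3A1 and FN1 at 90700, the highest value in the table. The mesenchymal sum was thus highest on day 6, intermediate on day 9 and lowest by a small margin on day 12 in the sample where the posterior HOX genes were mostly lowest. Genes at 90700, on day 12 also COL1A1, cannot show a difference between samples. The order of these sums, mainly on day 12, therefore does not rank the mesenchymal content. The 2 genes that follow are 1 of 6 mesoderm markers and 1 of 16 retinoic acid genes, chosen after their values were seen. HAND1, a factor of extraembryonic and heart mesoderm, had values of 5556, 5638 and 10436, then 3754, 7773 and 2846, then 2774, 5250 and 2650, and was highest in the samples where those genes were lowest. ALDH1A2, the main retinoic acid synthesising enzyme of the embryo, had 80, 117 and 45, then 456, 47 and 396, then 583, 38 and 57. Their part in the spread of the HOX values was not tested.

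For the lists of other genes that follow, the shares of all genes called higher and lower were 4.40 and 3.48% by day 2 and 4.97 and 4.53% from day 2 to day 4. In the comparison of the fractions on days 6, 9, 12 and 16 the shares higher on the CD43+ side were 4.68, 8.65, 11.8 and 12.2%, and those lower 7.85, 12.8, 14.4 and 13.6%.

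Among the upstream factors, all 3 CDX genes rose by day 2, with a median log2 change of 8.22 beside -0.01 over all genes. CDX2 went from 0, 1 and 0 to 1542, 1976 and 1738, a change of 10.4 (SE 0.55, adjusted p 2.20e-14). On day 6, 2 of the 3 were lower in CD43+ cells, with CDX2 at 282, 350 and 438 in CD43- cells against 0, 6 and 2 (-7.00, SE 0.55, adjusted p 6.95e-11). On days 9, 12 and 16 it was the single CDX gene called lower.

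Of the 16 retinoic acid genes tested, 3 rose by day 2, led by ALDH1A2, and from day 2 to day 4 1 rose and 4 fell, among them CYP26A1, which breaks retinoic acid down, by 4.36. In CD43+ cells 7, 8, 7 and 5 were lower than in CD43- cells on days 6, 9, 12 and 16, and 1, 1, 0 and 0 higher, with medians of -1.74, -2.11, -1.52 and -1.25. The largest difference on day 6 was in CRABP2 (-4.34), a carrier of retinoic acid in the cell. On day 9 ALDH1A1, a retinoic acid synthesising enzyme, was 6.78 higher in CD43+ cells. CRABP1, another carrier, differed most on days 12 and 16 (-6.93 and -6.75).

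Of 9 DNA-binding partners of the TALE class (PBX, MEIS and PKNOX genes), 3 rose by day 2, MEIS1, MEIS2 and PKNOX2, and 2 rose from day 2 to day 4. The fractions differed in 2, 2, 3 and 2 of them on days 6, 9, 12 and 16, all lower in CD43+ cells, with medians of -0.60, -0.74, -1.69 and -0.74. The largest difference was PKNOX2 on each day, at 262, 371 and 424 in CD43- cells against 4, 10 and 9 on day 6 (-5.40, SE 0.50, adjusted p 1.24e-09).

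Of 15 Polycomb subunits, 2 rose and 2 fell by day 2. PHC1, a subunit abundant in stem cells, fell from 37170, 29004 and 29004 to 5478, 4956 and 4896 (-2.63). On days 6 and 9 limma called none of the 15 between fractions, on day 12 it called 2 lower, PCGF2 (-2.70) and PHC1 (-2.16), and on day 16 1. Of 12 MLL and H3K27 demethylase genes, which keep HOX genes active or lift the Polycomb mark, none was called by limma by day 2 or between the fractions on any day. KDM6B, an H3K27 demethylase, rose by 2.33 from day 2 to day 4 (adjusted p 7.65e-13).

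Of 15 noncoding genes within the clusters, 5 rose by day 2, led by HOTAIRM1 in HOXA, from 1, 2 and 1 to 198, 212 and 187 (6.45). Between days 2 and 4, 5 rose and 3 fell, and 13, 12, 8 and 5 were lower in CD43+ cells on days 6, 9, 12 and 16. HOXB-AS1 had the opposite sign throughout: it had values of 22, 17 and 19 in CD43- cells and 71, 84 and 48 in CD43+ cells on day 6, a difference of 1.73 (adjusted p 0.00407 by limma) that is under the fold threshold, and the differences were 1.31, 1.21 and 1.62 on the later days. It was named after its values were seen. Whether counting used the strand was not given in the sources used here, so reads of antisense genes and of the HOX genes they overlap may have been mixed.

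Of the 11 genes tested that lie just outside the clusters, 2 rose and 1 fell by day 2, with EVX1, a homeobox gene next to HOXA13, going from 2, 4 and 1 to 4508, 4783 and 4428 (10.5, adjusted p 6.31e-13) and then falling by 4.17 by day 4. Between the fractions 0, 1, 2 and 3 were higher in CD43+ cells on days 6, 9, 12 and 16, and 2, 3, 3 and 0 lower, with medians of -0.09, -0.49, 0.09 and -0.05. For 11 genes the shares of all genes correspond to fewer than 2 in either direction on any of these days. SKAP2, a neighbour of HOXA, was 3.64 higher in the CD43+/CD45+ cells of day 16, where 6 HOXA genes were lower. Mesoderm markers (T, MIXL1, EOMES, MESP1, HAND1 and TBX6) all rose by day 2, with a median of 9.29, and 5 of the 6 had fallen by day 4, when 4 of 7 pluripotency markers also fell.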

How the data were processed

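RNA of 34 samples was sequenced by the study. The authors aligned reads with Bowtie2, estimated gene counts with RSEM on an Ensembl index and normalised them for GC content and between samples with EDASeq; their processing notes also name STAR 2.7 and the build hg38. The deposited values are these rounded normalised counts, here treated as a score, since all samples share the same sorted values; sequencing depth is therefore unknown and strand use in counting was not given in the sources used here. All columns of the table matched a sample label.

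Kept for testing were genes that reached 10 in 3 samples or more, 19788 of 20255. Values were taken as log2(value + 1) and fitted with limma 3.58.1 in R 4.3.3, 33 samples of 11 populations together, with empirical Bayes moderation and a mean-variance trend. Calls needed a Benjamini-Hochberg adjusted p under 0.05 and a fold change above 4. Tables and figures were made with Python 3.11.15, numpy 2.4.6, pandas 2.3.3 and matplotlib 3.10.9. The procedure was tested on simulated data. The 39th HOX gene, HOXA4, was not analysed here.

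In each comparison the called gene with the largest log2 change in each cluster was given in full, and listed genes by counts and medians; other genes named were chosen after their values were seen. Some single-gene results under this rule are not reported here, though the genes stay in the counts. The HOX genes and all lists (CDX, TALE, Polycomb, MLL and demethylase, retinoic acid, flanking, noncoding and cell type markers) were chosen with earlier results of these data known.

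Alternatives were pseudocounts of 0.1 and 10, other filters, a fold change above 2, median-of-ratios scaling, a fit of only the compared populations, a replicate block and leaving out each sample. Same-numbered samples were taken as paired where the correlation of their deviations was over 0.1 in all 3 pairs, which held for the day 6 fractions alone (0.109 to 0.199), though all 3 were also above 0 in some other comparisons (up to 0.370 for CD43- cells, day 12 against day 9, where the lowest was 0.0234); the pairing comes from the data, not the labels.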

Additional observations from a re-analysis of the deposited data

Results flagged for a closer look

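In the fit of all populations, limma called a change between days in the difference between CD43+ and CD43- cells for 13 HOX genes, 4 from day 9 to 12 and 9 from day 12 to 16. Between days 9 and 12 the log2 difference moved by -2.10 for HOXB5, -2.50 for HOXB6, -2.46 for HOXB8 and -3.93 for HOXB9. From day 12 to day 16 it moved by 3.67 for HOXA9, 3.24 for HOXA13, 3.89 for HOXB13, 3.77 for HOXC10, 3.46 for HOXC12, 3.94 for HOXD9, 5.08 for HOXD11 and 4.60 for HOXD12, and by -3.83 for HOXC5. The day 16 cells were also gated on CD45, so gate and day cannot be told apart for the second set. In a fit of the compared populations alone limma called 3 and 0 in place of 4 and 9, and leaving out 1 sample gave 2 to 10 and 3 to 13, with 2 without replicate 1 of the day 12 CD43+ cells and 3 without replicate 1 of the day 12 CD43- cells. With 3 samples in a population, single outlying samples were not tested for.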

How the results depend on the processing

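For 45 results of called and named HOX genes, no alternative turned the direction. Of their 656 recomputed values, 608 kept the call and 48 lost it, and 31 of the 45 results were called under every alternative. Genes named in a comparison where they were not called are not among the 45. For the counts of HOX genes called, 109 of 137 values other than those leaving out a sample stayed within 1.5 times of the value given, among them all with median-of-ratios scaling or no filter on low values. Those settings had little room to change the counts. All samples already hold the same set of values, and the filter removed 467 genes, none of them a HOX gene.

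With a pseudocount of 10, counts were 17, 21, 20 and 12 between the fractions on days 6, 9, 12 and 16, 10 for day 2 against EBs, 19 for day 6 CD43+ against day 4 cells, 2 for CD43+ day 16 against 12, 0 for CD43- day 12 against 9 and 2 for the change from day 9 to 12. With a filter of 100, which tests fewer HOX genes, they were 18 and 21 between the fractions on days 6 and 9, and 0 and 1 for CD43- day 9 against 6 and 12 against 9. With a pseudocount of 0.1 they were 4 and 10 for CD43+ day 9 against 6 and 16 against 12, and 1 for the change from day 6 to 9. With a fold change above 2 they were 3 for day 6 CD43- against day 4, 4 and 11 for CD43+ day 9 against 6 and 16 against 12, and 4, 6 and 19 for the CD43- steps to days 9, 12 and 16. In a fit of the compared populations alone they were 3 for CD43+ day 16 against 12, 0, 0 and 7 for the CD43- steps, and 0 for the change from day 12 to 16 (limma). The cause was not tested.

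Leaving out 1 sample gave 26 to 29, 31 to 33, 30 to 34 and 20 to 24 between the fractions on days 6, 9, 12 and 16. It gave 21 to 24 for day 2 against EBs, 22 to 26 for day 4 against day 2, and 28 to 30 and 1 to 5 for day 6 CD43+ and CD43- against day 4. For the CD43+ steps it gave 0 to 2, 5 to 6 and 3 to 6, for the CD43- steps 0 to 4, 1 to 9 and 8 to 15, and for the changes of the difference 0 to 2, 2 to 10 and 3 to 13.

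With the replicate number as a block within the day 6 populations, where the numbers paired the samples, 25 HOX genes were called in place of 29, HOXA6, HOXD1, HOXD10 and HOXD11 being lost. For the other comparisons the samples share only a number: a block over all populations left every count as it was, except 1 in place of 0 for the change from day 6 to 9. Depth is unknown, so no limit from depth could be set.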
